A study of Mus musculus with 4 samples.

Results

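The forkhead genes encode transcription factors that share a winged-helix DNA-binding domain, and 37 of them were read here for CpG methylation. They were taken by symbol and matched to Ensembl identifiers in GENCODE vM21. No methylation value served as a criterion, but earlier results of these data were known. All 37 had at least 1 deposited entry, out of 28883 genes with an entry in any library. An entry is the methylation level of one gene in one class of region (promoter, 5′ UTR, exon, intron or 3′ UTR), that is, the fraction of CpG cytosines read as methylated, from 0 to 1. The 37 genes had 143 entries, of which 138 had a level in all 4 libraries, against 76155 such entries over all genes.

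The cells were C3H10T1/2, a mouse line labelled as mesenchymal stem cells (MSCs), read by reduced representation bisulfite sequencing (RRBS). Bisulfite treatment turns cytosines without a methyl group into uracil and leaves methylated cytosines as they are. All libraries came from cells transfected for 48 h. In the NC uninduced library the cells received a control siRNA and no induction, and in the siDNMT1 uninduced library an siRNA against DNMT1, the enzyme that copies methylation to newly made DNA. In the NC OB and siDNMT1 OB libraries the same transfections were followed by 3 days of osteoblast (OB) induction with L-ascorbic acid, β-glycerophosphate and dexamethasone. Each condition was 1 library of 1 cell line, so every difference below is between 2 libraries and has no replicate check. The study's methods describe 2 siRNAs against DNMT1 and do not state which one these libraries received, and the files hold no RNA, so neither the knockdown nor the identity of the cells was checked here. Whether uninduced cells stayed in culture for the same 3 days is not stated, so induction and time in culture cannot be told apart. The files list 155398 to 159705 regions per library, lowest in siDNMT1 OB, and give fractions only, so the depth of each level cannot be known from them.

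Forkhead factors set up and maintain cell types. FOXA proteins open closed chromatin in endoderm, FOXC, FOXD, FOXF and FOXL1 proteins act in mesoderm and its mesenchyme, FOXO proteins carry the signal of insulin and growth factors to the nucleus, and FOXM1 drives entry into mitosis. In mammalian cells a CpG island at a gene's start is usually unmethylated whether or not the gene is used, whereas gene bodies and stretches poor in CpG are usually methylated.

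Before the values, the 200 bases ahead of the RefSeq start are given for 6 members, from RefSeq on GRCm38.p6, 5′ to 3′ on the gene's strand, with every CG in capitals because that is the pair read here. Foxc1 (plus strand, chr13:31806446-31806645), Foxf2 (plus strand, chr13:31625616-31625815) and Foxk2 (plus strand, chr11:121259787-121259986) are shown because the island at the start was almost unmethylated. Foxd3 (plus strand, chr4:99656099-99656298) and Foxb2 (minus strand, chr19:16873831-16874030) are shown because it was methylated, and Foxi1 (minus strand, chr11:34208090-34208289) because no island was listed there.
Foxc1: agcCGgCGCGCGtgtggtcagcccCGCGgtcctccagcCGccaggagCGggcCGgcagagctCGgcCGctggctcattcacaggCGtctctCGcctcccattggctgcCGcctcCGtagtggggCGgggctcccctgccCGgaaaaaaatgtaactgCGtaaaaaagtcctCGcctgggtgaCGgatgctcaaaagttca
Foxf2: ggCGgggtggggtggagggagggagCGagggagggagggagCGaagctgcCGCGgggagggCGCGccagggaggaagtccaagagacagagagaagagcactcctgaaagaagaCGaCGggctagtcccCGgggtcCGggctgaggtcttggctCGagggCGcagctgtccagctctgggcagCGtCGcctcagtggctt
Foxk2: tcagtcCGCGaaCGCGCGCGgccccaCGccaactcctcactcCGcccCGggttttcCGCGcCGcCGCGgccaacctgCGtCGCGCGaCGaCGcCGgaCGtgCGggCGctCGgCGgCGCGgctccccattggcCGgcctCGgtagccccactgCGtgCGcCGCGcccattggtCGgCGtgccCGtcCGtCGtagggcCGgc
Foxd3: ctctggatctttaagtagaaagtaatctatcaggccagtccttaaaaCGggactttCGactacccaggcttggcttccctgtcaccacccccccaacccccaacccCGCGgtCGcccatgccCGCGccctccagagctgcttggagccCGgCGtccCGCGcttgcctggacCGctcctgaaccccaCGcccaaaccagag
Foxb2: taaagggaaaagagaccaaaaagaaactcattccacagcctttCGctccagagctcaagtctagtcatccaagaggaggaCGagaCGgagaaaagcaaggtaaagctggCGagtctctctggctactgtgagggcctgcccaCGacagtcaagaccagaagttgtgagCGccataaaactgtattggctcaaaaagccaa
Foxi1: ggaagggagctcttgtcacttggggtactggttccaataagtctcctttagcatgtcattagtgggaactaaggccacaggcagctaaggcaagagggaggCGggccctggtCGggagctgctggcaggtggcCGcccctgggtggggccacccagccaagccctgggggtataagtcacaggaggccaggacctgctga
The windows hold 20 CG pairs in Foxc1, 15 in Foxf2, 40 in Foxk2, 13 in Foxd3, 6 in Foxb2 and 3 in Foxi1. Foxf2 and Foxd3 are close in this count, yet the islands over their starts had mean levels of 0.0488 and 0.544. Of the 37 members, 23 were in the sequence table used.

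Every member had an exon entry, 32 had a 5′ UTR entry, 29 a promoter entry, 24 a 3′ UTR entry and 21 an intron entry. By the study's definition a promoter covers the 2 kb ahead of the start. The 8 members without a promoter entry were Foxb2, Foxd1, Foxd4, Foxe1, Foxi1, Foxn1, Foxq1 and Foxs1. Promoters were listed for 78.4% of the members and 63.9% of all 21951 coding genes, and 3′ UTRs for 64.9% and 21.3%. Entries of one gene can overlap, since a UTR lies within exons, and are not independent measurements.

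**Figure D1:**
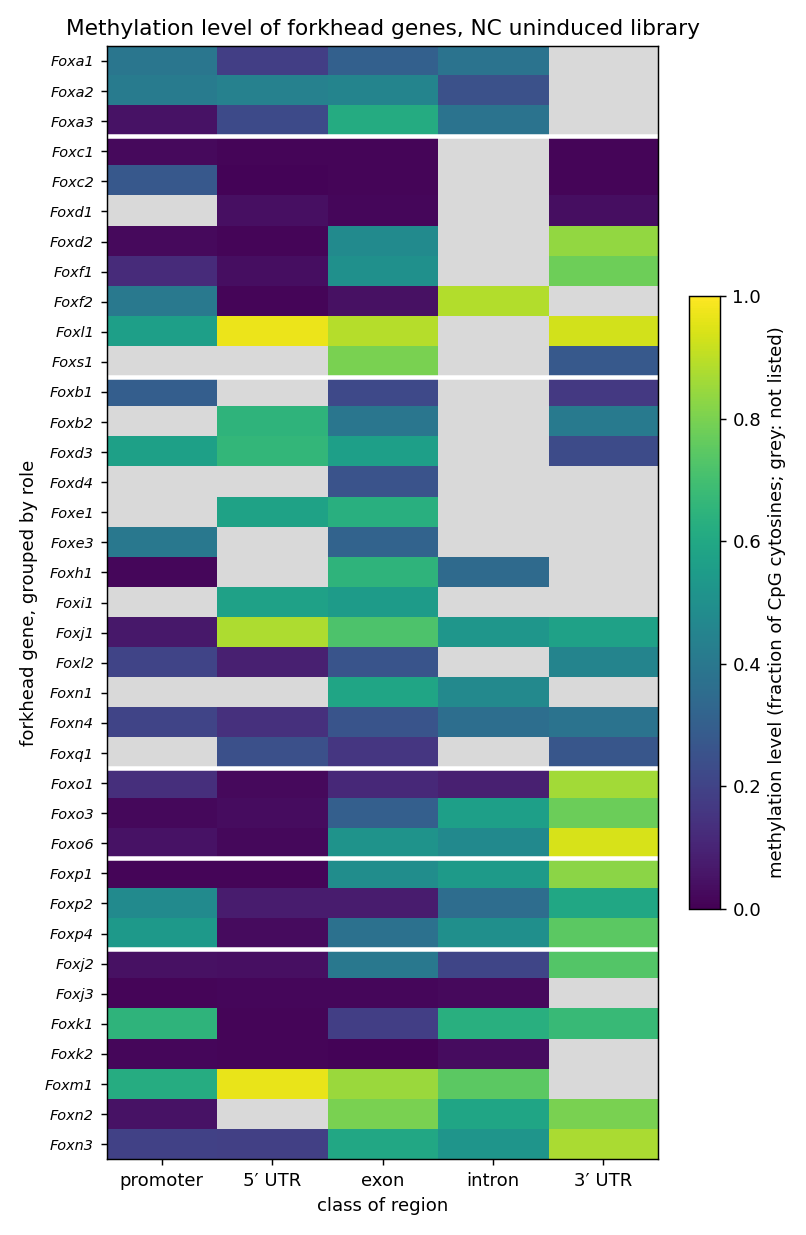
Methylation level (colour, fraction of CpG cytosines) of the 37 forkhead genes (vertical) in 5 classes of region (horizontal) in the NC uninduced library, with grey for entries not listed and white lines between groups of genes. Foxc1, Foxc2 and Foxd1 are dark over 5′ UTR, exon and 3′ UTR, while Foxl1 and Foxm1 are bright over 5′ UTR and exon.

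Beside the promoters of all genes, noncoding ones included, forkhead promoters were neither high nor low as a group. Their median level was 0.195 in NC uninduced, 0.195 in siDNMT1 uninduced, 0.157 in NC OB and 0.148 in siDNMT1 OB, and over all 20152 promoters it was 0.191, 0.188, 0.174 and 0.164 in the same order. In NC uninduced, 12 of the 29 were below 0.1, or 41.4%, against 41.0% of all promoters. All members are coding genes, and beside genes with further entries their median promoter level was higher. Among genes with an exon entry as well, the median promoter level was 0.195 over 29 members and 0.126 over 15716 genes. Among genes with a 5′ UTR entry as well, it was 0.195 over 25 members and 0.0749 over 10612 genes. Both 0.126 and 0.0749 lie inside the 95% order-statistic interval of the median over the 29 members, 0.0493 to 0.399. That interval treats genes as independent. The classes differed in level. The median was 0.0588 over 5′ UTRs, 0.391 over exons, 0.470 over introns and 0.673 over 3′ UTRs in NC uninduced, beside 0.0286, 0.361, 0.424 and 0.675 over all genes. Within genes, the 3′ UTR was above the 5′ UTR in 14 of 19 members with both (2780 of 3108 over all genes), the 5′ UTR was below the promoter in 17 of 25, and the intron was below the exon in 11 of 21.

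Single promoters spread widely, and the spread between genes was far larger than between libraries. The promoter of Foxk1, a repressor tied to nutrient use, was the highest, with 0.649, 0.651, 0.619 and 0.605 in NC uninduced, siDNMT1 uninduced, NC OB and siDNMT1 OB, an order kept for all sets of 4 values below. Foxl1, a factor of gut mesenchyme, had 0.566, 0.525, 0.589 and 0.544. Foxm1, the mitotic factor, had 0.619, 0.575, 0.528 and 0.476. Its 4 values cover the widest range of any of the 29 promoters, 0.144.
Foxd3, a factor of neural crest and pluripotent cells, had 0.568, 0.555, 0.495 and 0.473. Foxp2, known for speech and vocal learning, had 0.478, 0.502, 0.470 and 0.487. Foxp4, of lung and gut epithelium, had 0.542, 0.464, 0.467 and 0.452. Foxk1 was the highest of these in every library, while the ranges of Foxl1, Foxm1 and Foxd3 overlap, and the order among these 3 depends on the library.

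The 6 lowest promoters by mean level were all below 0.03 in every library, as was the next, Foxd2. They were Foxk2 (0.0172, 0.0155, 0.0132 and 0.0151), the close relative of Foxk1, and Foxj3 (0.0152, 0.0168, 0.0126 and 0.0173), a widely expressed factor. Foxp1, a repressor of many tissues including bone, had 0.0153, 0.0162, 0.0133 and 0.0175. Foxh1, a partner of Smad proteins downstream of Nodal, had 0.0178, 0.0246, 0.0149 and 0.0211. Foxc1, a factor of skeletal mesenchyme, had 0.0243, 0.0202, 0.0197 and 0.0221, and Foxo3, of the insulin pathway, 0.0224, 0.0259, 0.0243 and 0.0217. The ranges of all 6 overlap a neighbour's, so their order is not settled. The other 17 promoters had mean levels between 0.0255 (Foxd2) and 0.395 (Foxa2).

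**Figure D2:**
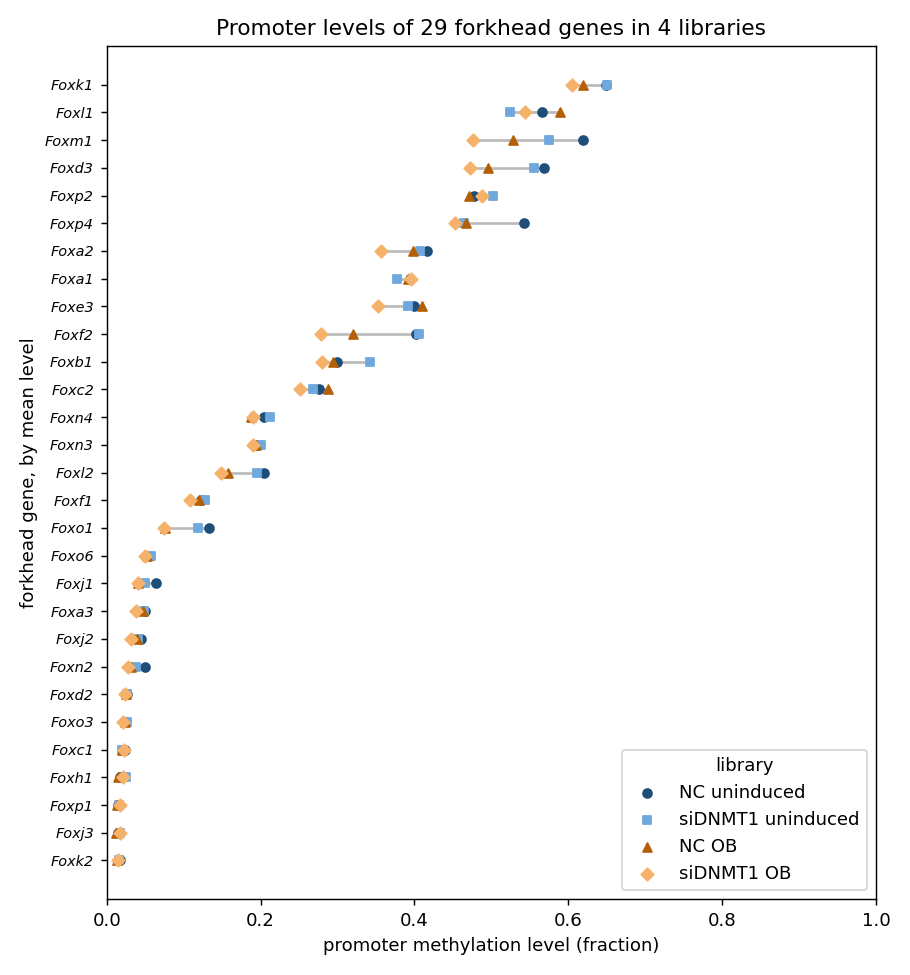
Promoter methylation level (horizontal, fraction) of the 29 forkhead genes with a promoter entry (vertical, ordered by mean level), with 1 symbol per library and a grey line over the range. Genes span 0.0152 to 0.631 in mean level, while the widest range of one gene over the libraries is 0.144 (Foxm1).

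A methylated promoter entry did not always mean a methylated start. The files also list CpG islands by position, and 35 members had an island within 2.5 kb of the GENCODE start, Foxi1 and Foxn1 having none. The median of the mean levels of these start islands was 0.115, against 0.0206 over 11537 coding genes with such an island. Levels below 0.1 were found at 17 members, or 48.6%, against 74.5% of coding genes, and levels of 0.5 or more at 5, or 14.3%, against 6.01%. With 1 cell line and no replicates this is a description of these libraries. Of the 29 members with both values, 9 had a mean level of at least 0.1 in the promoter entry and the island, 8 were below 0.1 in both, 8 were at 0.1 or more in the promoter alone and 4 in the island alone. Foxk1 belongs to the promoter-only genes. Its start island (chr5:142401367-142402022) was at 0.0156, 0.0171, 0.0143 and 0.0157 and its 5′ UTR at 0.0133 in NC uninduced, while the shore upstream of the island, the flank of an island, was at 0.674.

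Groups by role, used from here on, were set with earlier results of these data known, and the start-island rule after its values were seen. The 7 broadly expressed members outside FOXO and FOXP all had start islands below 0.1. Foxj2, Foxj3, Foxk1, Foxk2, Foxm1, Foxn2 and Foxn3, which are used in many tissues, had mean levels from 0.0111 (Foxk2) to 0.0352 (Foxn2). The island of Foxj3 begins 2226 bases past its GENCODE start and does not cover it. Foxp1 and Foxp4 were at 0.0162 and 0.0176, and Foxo1 and Foxo3, which restrain growth and guard against oxidative stress, at 0.0243 and 0.0497. Foxo6, a FOXO gene best known from brain, was at 0.209 and Foxp2 at 0.115. In NC uninduced the Foxo6 promoter was at 0.0506, its 5′ UTR at 0.0211 and its exon at 0.512.

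Genes of neural, epithelial, germ-layer and gonad development mostly had a start island at 0.1 or more. Of the 11 with a start island, 10 had a mean level of 0.1 or more and 3 of 0.5 or more, with a median of 0.243. Foxj1, the master factor of motile cilia, had 0.710, 0.690, 0.709 and 0.704. Foxe1, of thyroid, followed with a mean of 0.611 and Foxd3 with 0.544. Foxb2, of the embryonic nervous system, had 0.391, 0.375, 0.328 and 0.314, and both OB libraries lay below both uninduced ones. Foxe3 of lens, Foxd4 of neural ectoderm, Foxn4 of retina, Foxb1 of brain, Foxl2 of ovary and Foxq1 of hair and stomach lay between 0.153 and 0.322. The exception was Foxh1 at 0.0176, whose nearest island ends 1598 bases before its start and holds the start of Ppp1r16a, on the other strand 1667 bases upstream. The islands of Foxd4 and Foxq1 begin 522 and 1690 bases past the start. In NC uninduced the promoter entry of Foxj1 was at 0.0640 and its 5′ UTR at 0.875. Foxi1 of inner ear and kidney and Foxn1 of thymic epithelium had no island, and their exons had mean levels of 0.542 and 0.587.

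FOXA genes, the pioneer factors of liver and gut, stood between these groups. Their start islands had mean levels of 0.0904 (Foxa1), 0.187 (Foxa3) and 0.354 (Foxa2), and their 3 exon entries mean levels of 0.287 to 0.607.

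**Figure D3:**
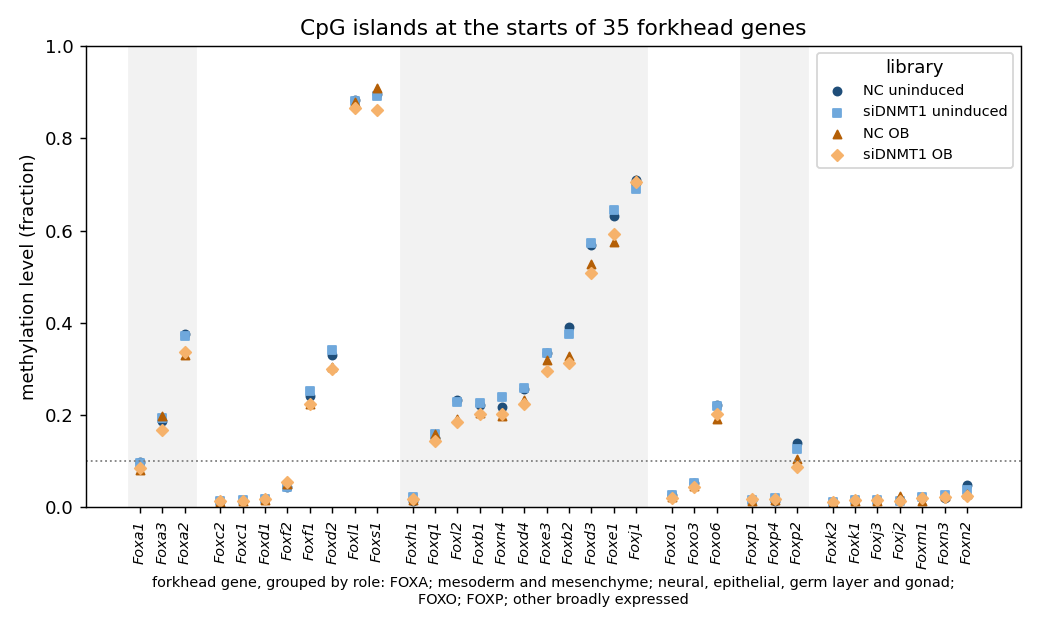
Methylation level (vertical, fraction) of the CpG island nearest the start of 35 forkhead genes (horizontal, in 6 groups by role marked by shading), 1 symbol per library, with a dotted line at 0.1. All 7 genes of the last group lie below the line, while 10 of the 11 neural, epithelial, germ-layer and gonad genes lie above it in mean level.

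The members known from mesenchyme, the tissue that this cell line stands for, were split. Start islands of Foxc1, Foxc2, Foxd1 and Foxf2 were below 0.1, those of Foxf1 and Foxd2 were at 0.236 and 0.319, and those of Foxl1 and Foxs1 at 0.876 and 0.889. The Foxd2 island reaches 1754 bases past the start. In NC uninduced the Foxd2 promoter was at 0.0269, its 5′ UTR at 0.0131 and its exon at 0.477. Foxc1 was unmethylated over its whole length, with an exon level of 0.0142, 0.0172, 0.0136 and 0.0144 and a 3′ UTR level of 0.0156, 0.0211, 0.0161 and 0.0152. Foxc2, known from adipocytes and lymphatic vessels, had an exon level of 0.0118, 0.0131, 0.0113 and 0.0148, although its promoter entry was at 0.276, 0.268, 0.288 and 0.251. Foxd1, of kidney stroma, had a mean exon level of 0.0183. No intron was listed for these 3 genes.

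Foxl1 showed the opposite pattern to its neighbour Foxc2. On chromosome 8, Foxf1 (chr8:121084386-121088144), Foxc2 (chr8:121116171-121118895) and Foxl1 (chr8:121127940-121130644) follow each other on the plus strand within 43.6 kb between the first and last starts. Foxl1 starts 11.8 kb after Foxc2. Its exon level was 0.888, 0.886, 0.886 and 0.873, its 5′ UTR level 0.971, 0.970, 0.968 and 0.941 and its 3′ UTR level 0.931, 0.936, 0.921 and 0.907. Its start island (chr8:121127840-121129274) was at 0.882, 0.880, 0.878 and 0.865, and the island over Foxc2 (chr8:121116213-121118193) at 0.0118, 0.0131, 0.0113 and 0.0148. Another island between the 2 genes (chr8:121125382-121125828), just upstream of Foxl1, was at 0.108, 0.104, 0.109 and 0.113.

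Foxf1, a factor of lung and gut mesenchyme, was intermediate. Its promoter was at 0.123, 0.128, 0.120 and 0.109, its 5′ UTR at 0.0365, 0.05, 0.0495 and 0.0422 and its exon at 0.501, 0.512, 0.482 and 0.488. Its start island, 2552 bases long and mostly upstream of the gene, was at 0.242, 0.253, 0.225 and 0.224. The level was lowest in the 5′ UTR and highest in the 3′ UTR, at 0.778 in NC uninduced.

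A second run of neighbours lies on chromosome 13. Foxq1 (chr13:31556134-31560976), Foxf2 (chr13:31625816-31631403) and Foxc1 (chr13:31806633-31812476) lie on the plus strand, in this order, with 69.7 kb between the first 2 starts and 181 kb between the last 2. The 3 start islands had mean levels of 0.153, 0.0488 and 0.0149. Foxf2, of gut and palate mesenchyme, changed steeply within itself. Its 5′ UTR was at 0.0127, 0.0147, 0.0146 and 0.0183 and its exon at 0.0445, 0.0438, 0.0509 and 0.0557, whereas its intron was at 0.886, 0.877, 0.879 and 0.869. An island inside Foxf2 (chr13:31629172-31629886) was at 0.885 in NC uninduced.

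**Figure D4:**
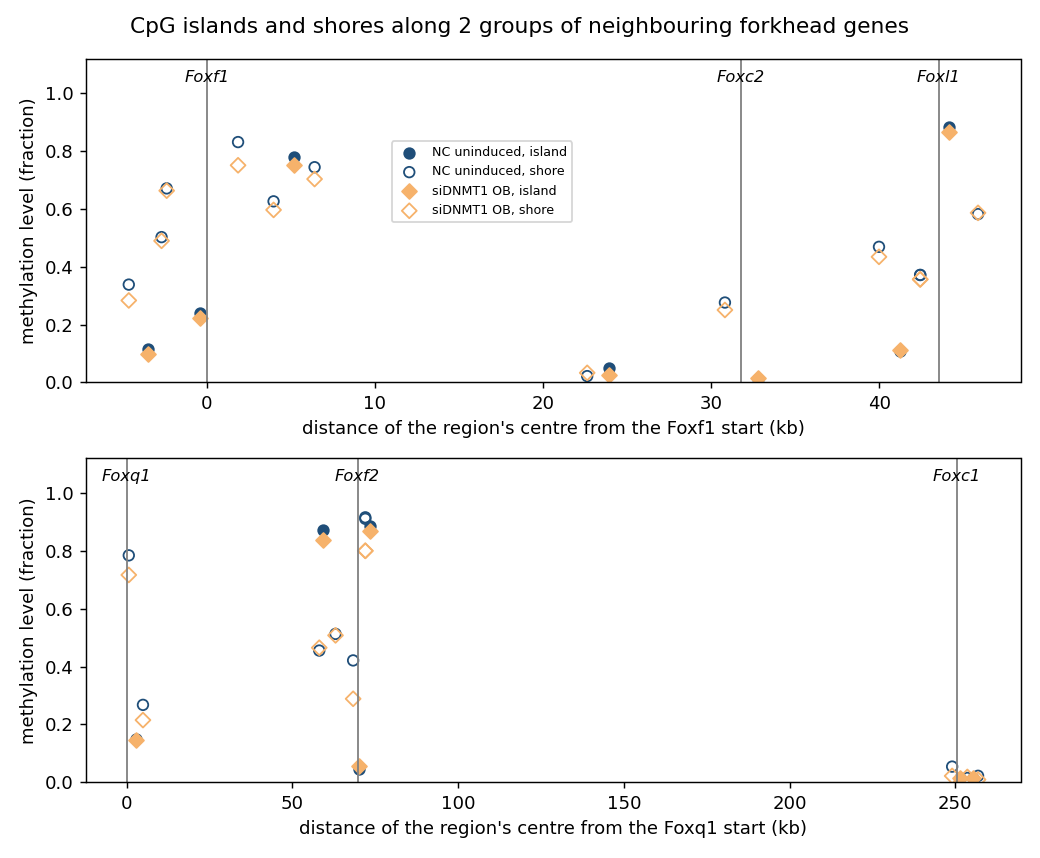
Methylation level (vertical, fraction) of CpG islands (filled) and shores (open) against distance in kb (horizontal) along the chromosome 8 genes (upper panel) and the chromosome 13 genes (lower panel), in the NC uninduced and siDNMT1 OB libraries, with lines at gene starts. The island at Foxl1 lies near 0.88 and that at Foxc2 near 0.01 in both libraries, and all regions around Foxc1 lie below 0.06.

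Foxm1 is a case where the promoter entry and the sequence around the annotated start disagree. The 2 kb upstream of its GENCODE start are covered to 99.95% by its start island (chr6:128362434-128363264), at 0.0211, and that island's shore, at 0.0440 in NC uninduced. The promoter entry was 0.619 there, 0.575 above the higher of the 2, and the 5′ UTR entry was 0.965. GENCODE holds further protein-coding Foxm1 transcripts that start 2738, 3200 and 4320 bases into the gene, and which start the deposited entry refers to is not stated. Whether its promoter values describe sequence ahead of the gene or inside it is therefore not known. Of 27 members whose upstream 2 kb overlapped listed islands or shores, 18 had a promoter level within the range of those regions to 0.01. Some of these ranges were wide, as at Foxj1, from 0.0640 to 0.710. After Foxm1, the largest distances from the range were 0.172 (Foxo6) and 0.119 (Foxf1), both with the promoter entry below it. Listed regions covered 38.6% of the 2 kb at Foxo6 and 100% at Foxf1.

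Promoters of like CpG density could differ widely in level. The 2 kb upstream of the start held 3.75 CG pairs per 100 bases in Foxc1, 4 in Foxk2 and 4 in Foxd3, whose promoter entries had mean levels of 0.0216, 0.0152 and 0.523. Across the 29 genes, density ran from 0.850 to 9.45 per 100 bases, and its correlation with mean promoter level was weak (Pearson's r = -0.230, Spearman's rho = -0.0819, across genes that share libraries and are not replicates). In the shorter window around the RefSeq start, over the 18 genes with one, r was -0.373 and rho -0.481. The RefSeq start lay 113508 bases from the GENCODE start in Foxn3, 2657 in Foxj3, 1728 in Foxp1 and 805 in Foxa1. In such genes the window and the promoter entry need not cover the same sequence. The 8 members without a promoter entry had a median of 22.5 CG pairs in these 2 kb, against 77 in the 29 with one.

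Before induction the siDNMT1 and NC libraries differed little over forkhead genes. A difference of at least 0.1 was found in 1 of 138 entries, against 1.54% of all entries, and that 1 was higher with siDNMT1. It was the intron of Foxn2, a forkhead gene with little known function, at 0.587, 0.703, 0.609 and 0.599, a difference of 0.116. The siDNMT1 uninduced library stood alone above the other 3. The median difference over the 138 entries was -0.00155, beside -0.00158 over all entries, and 78 of 138 entries were below 0. The largest difference below 0 was at the promoter of Foxp4, -0.0784.

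After 3 days of OB induction, 1 of 138 entries differed by at least 0.1 between siDNMT1 and NC, against 2.16% of all entries. It was the 3′ UTR of Foxf1, at 0.778, 0.744, 0.777 and 0.674, so that siDNMT1 OB was the lowest library and the NC libraries differed by -0.00150. The difference was -0.103, and -0.0788 once each library was centred on its median over all 3′ UTRs. Levels were lower with siDNMT1 in 97 of 138 entries (70.3%, against 66.8% of all entries), with a median of -0.00817 beside -0.00619. Centring each library on its class medians turned the median over forkhead entries to 0.00306 here and to 0.00131 before induction, beside 0.00312 and 0.00140 over all entries centred in the same way. After centring the Foxn2 exon passed 0.1 here instead of the Foxf1 3′ UTR, at 0.106 and in the higher direction. The Foxn2 exon entry of NC OB has a limit, given below with OB induction under the control siRNA.

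The siDNMT1 comparisons before and after induction share no library. Of 138 entries, 61 were lower with siDNMT1 in both (44.2%, against 39.8% of all entries), 24 were higher in both, 17 were lower before and higher after, and 36 were higher before and lower after. Among the 28 entries of mesenchymal genes, 13 were lower with siDNMT1 and 15 higher before induction, with a median of 0.000946. After it 17 were lower and 11 higher, with a median of -0.00194. At the Foxl1 promoter, in this group, the differences with siDNMT1 were -0.0412 and -0.0454, before and after induction. At the Foxm1 promoter they were -0.0446 and -0.0523, with the limit on its start given above. At the Foxc1, Foxo3 and Foxp1 promoters, which were already low and had little room to fall, no difference exceeded 0.005 in size.

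Under the control siRNA, 3 of 138 entries differed by at least 0.1 between OB and uninduced cells, against 2.15% of all entries, and all 3 were lower in OB, as 1.33% of all entries were. The 3′ UTR of Foxb2 was at 0.412, 0.366, 0.250 and 0.288, with both OB libraries below both uninduced ones. The 3′ UTR of Foxj1 was at 0.571, 0.495, 0.458 and 0.472, with both OB libraries lower. Its difference was -0.114 under NC and only -0.0226 under siDNMT1, and NC uninduced stood apart from the other libraries. The exon entry of Foxn2 was at 0.799, 0.792, 0.675 and 0.767, and NC OB stood alone. In NC OB, and in no other library, a Foxn2 5′ UTR entry was also listed, at 0.0645, and in the other 3 libraries the exon and 3′ UTR entries of Foxn2 had the same value. The 3′ UTR entry of Foxn2 was at 0.799, 0.792, 0.797 and 0.767, with a difference of -0.00229 between the NC libraries. The part of the newly listed 5′ UTR stretch in the exon difference of -0.124 was not tested.

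With siDNMT1, 3 of 138 entries were at least 0.1 lower in OB, against 2.42% of all entries, and 0 were higher. In either direction 3.4% of all entries passed. The exon entry of Foxo1, the FOXO factor that regulates osteoblasts and glucose use, was at 0.117, 0.174, 0.0516 and 0.0190. Its 3′ UTR was at 0.861, 0.802 and 0.875 in the first 3 libraries and was not listed in siDNMT1 OB, where the exon level was lowest. The part of this missing stretch in the exon difference of -0.155 was not tested. The promoter of Foxf2 was at 0.403, 0.406, 0.320 and 0.279, with both OB libraries below both uninduced ones and a difference of -0.127 under siDNMT1 and -0.0822 under NC. The intron of Foxn2 fell by 0.105 from its high value in siDNMT1 uninduced, and the difference with centred libraries, -0.0873, is short of 0.1.

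Most other entries drifted the same way by less. Levels were lower in OB in 100 of 138 entries under NC (72.5%, against 61.7% of all entries) and in 109 under siDNMT1 (79.0%, against 72.0%), with medians of -0.00628 and -0.0178 beside -0.00339 and -0.00800. Among entries with a mean level between 0.1 and 0.9, the medians were -0.0178 and -0.0339 over 91 forkhead entries, beside -0.00696 and -0.0178 over all such entries. With each library centred on its class medians, the medians over the 138 entries were -0.000814 and -0.00115, beside 0.00616 and 0.00773 over all entries. In the neural, epithelial, germ-layer and gonad genes 36 of 39 entries were lower in OB under siDNMT1 and 28 of 39 under NC. In the mesenchymal genes, many of them near 0, 20 of 28 and 19 of 28 were lower, with medians of -0.00787 and -0.00207. The siDNMT1 OB library held the lowest of the 4 levels in 80 of 138 forkhead entries, or 58.0%, against 50.4% of all entries, and it also listed the fewest regions.

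At a looser threshold the forkhead share was below that of all entries with siDNMT1 and slightly above it for OB. At least 0.05 was reached with siDNMT1 before induction by 6 of 138 entries (4.35%, against 6.51% of all entries) and after it by 9 (6.52%, against 10.1%). For OB it was reached under NC by 17 (12.3%, against 10.2%) and under siDNMT1 by 24 (17.4%, against 14.7%). At least 0.2 was reached by 0 in each, against 0.311%, 0.478%, 0.379% and 0.691% of all entries in the same order. Over the 58 exon and intron entries alone, 1, 0, 1 and 2 differed by at least 0.1, against 1.49%, 2.09%, 1.98% and 3.47% of all such entries.

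**Figure D5:**
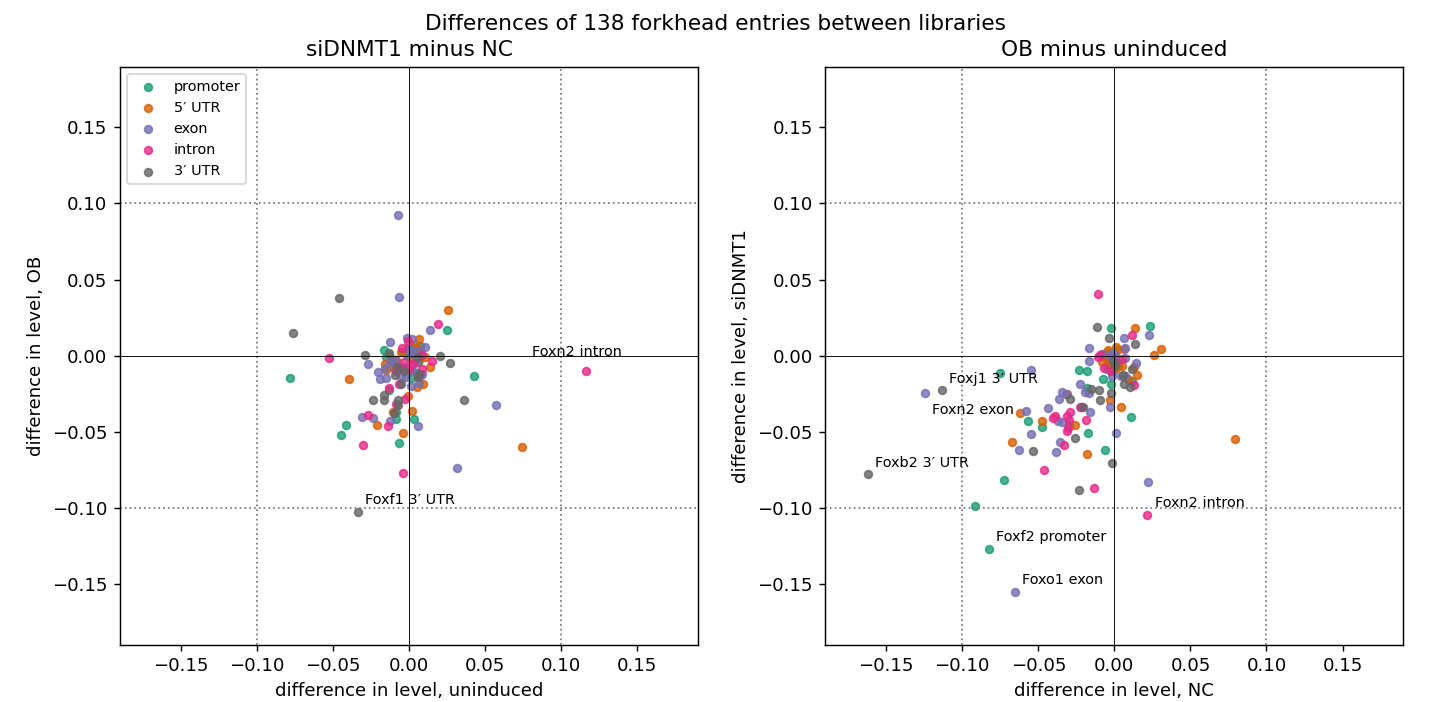
Differences in methylation level (fraction) of the 138 forkhead entries: siDNMT1 minus NC, uninduced (horizontal) against OB (vertical), and OB minus uninduced, NC (horizontal) against siDNMT1 (vertical), coloured by class of region with dotted lines at 0.1 and -0.1. Named points are the entries beyond a line, 2 in the left panel and 6 in the right.

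Islands and shores around the members, listed by position from the same libraries and in part over the same bases as the gene entries, showed few differences. Of 57 islands overlapping or near a member, 1 differed by at least 0.1 with siDNMT1 before induction (0.482% of all islands) and 0 after it (0.681%). Of 85 shores, 1 differed before (1.91%) and 1 after (2.6%). Both changes before induction were near Foxd4. The island lay 3626 to 3960 bases past its start, beyond the end of the gene (0.3, 0.44, 0.4 and 0.399). The shore, 1691 to 3690 bases past the start, adjoins the start island of Foxd4 (0.333, 0.452, 0.4 and 0.413). The shore after induction was near Foxd2, a factor of paraxial mesoderm, at 0.644, 0.594, 0.714 and 0.5. Between the NC libraries 1 island (1.18%), the same island near Foxd4, and 0 shores (2.87%) differed.

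Under siDNMT1, 1 island and 3 shores were at least 0.1 lower in OB and none was higher, against 1% of all islands and 3.58% of all shores that were lower (1.26% and 4.48% in either direction). The shore upstream of Foxo1 (chr3:52265610-52267609) was at 0.598, 0.584, 0.524 and 0.445. The promoter entry of Foxo1, which overlaps it, was at 0.133, 0.118, 0.0763 and 0.0751, with both OB libraries below both uninduced ones. Its start island, at 0.0269, 0.0266, 0.0222 and 0.0214, its downstream shore, at 0.0951, 0.0824, 0.0752 and 0.0816, and its intron, at 0.0865, 0.0949, 0.0841 and 0.0845, moved little. The shore upstream of Foxf2 (chr13:31623498-31625497) was at 0.421, 0.424, 0.337 and 0.288 and covers nearly the same bases as the promoter entry, so it is no separate measurement. The third shore lay near Foxe3 and the island near Foxa2, with differences of -0.128 and -0.106.

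Other genes of the FOXO pathway were mostly low in level. Of 27 genes listed by symbol for this pathway, 23 had a promoter entry, with a median level of 0.05 and 15 below 0.1. The list held Pdk1 and not Pdpk1, and Insr, the insulin receptor, had no promoter entry. In each of the 4 comparisons 0 of the 23 differed by at least 0.1, against 1.48% of all promoters for siDNMT1 before induction, 2.2% for siDNMT1 after it, 2.18% for OB under NC and 3.37% for OB under siDNMT1. The largest difference was at Pck1, a gluconeogenic enzyme and FOXO1 target, at 0.259, 0.182, 0.255 and 0.228, which is -0.0776 with siDNMT1 before induction. Cdkn1b, the cell cycle inhibitor p27, was at 0.0126, 0.0142, 0.0103 and 0.0124.

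Noncoding genes beside members did not differ by 0.1 either. The promoter of Fendrr, which starts 1276 bases upstream of Foxf1 on the other strand, was at 0.191, 0.205, 0.179 and 0.178. Those of Foxd2os, Foxl2os and Foxo6os had mean levels of 0.351, 0.183 and 0.450. All 4 were higher with siDNMT1 before induction, with differences of 0.000737 to 0.0293, and lower with siDNMT1 after it, with differences of -0.000557 to -0.0642. The same pair of signs was found at 5510 of all 20152 promoters, and the smallest of these differences are close to no change.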

How the data were processed

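RRBS libraries of C3H10T1/2 cells were analysed, 1 per condition, grouped by the treatment in the labels. The protocol in the labels describes sonication and names no restriction enzyme. Per the submitters' processing notes, which name CASAVA, reads were handled with Trimmomatic (0.36) and Bismark (0.16.3) on mm10. The authors deposited, for each region, a fraction of CpG cytosines that were methylated. The coverage minimum, the weighting of cytosines and the gene annotation are not given in the sources used here, and depth per library is unknown. Levels were read as deposited with Python 3.11.15, pandas 2.3.3, numpy 2.4.6 and scipy 1.17.1, and sequences with pysam 0.24.0. Differences were taken over entries with a level in all 4 libraries and counted from 0.1. With 1 library per condition no test was run. The start island was the listed island nearest the GENCODE start within 2.5 kb, a rule chosen after its values were seen. Members, gene lists and rules were chosen with earlier results of these data known. Values in every library are given for members with an entry that differs by 0.1 with siDNMT1 or between the NC libraries, for the 6 highest and 6 lowest promoters, and for Foxc1, Foxc2, Foxf1, Foxf2, Foxl1, Foxo1, Foxo3, Foxm1 and Foxp1. Other values were named after they were seen. The counting was tested on simulated data. Alternatives were the threshold, the entries used, centring, the class of region and the sequence window.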

Additional observations from a re-analysis of the deposited data

Results flagged for a closer look

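The Foxn2 intron moved in opposite directions in comparisons that share no library. With siDNMT1 its level was 0.116 higher before induction and 0.0101 lower after it, and OB induction went with a rise of 0.0217 under NC and a fall by 0.105 under siDNMT1. Both contrasts give the same change of effect, -0.126, because they are built from the same 4 levels. The difference between the effects was not tested, since each condition is 1 library, and the whole pattern rests on the siDNMT1 uninduced level of 0.703.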

How the results depend on the processing

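No paired analysis was possible because the labels give no replicate numbers and each condition is 1 library. Leaving out a library would leave a condition with none. Counts of forkhead entries depended on the threshold. In the order siDNMT1 minus NC before induction, siDNMT1 minus NC after it, OB minus uninduced under NC and under siDNMT1, at least 0.05 gave 6, 9, 17 and 24 entries in place of 1, 1, 3 and 3, and at least 0.2 gave 0 in each. Promoters alone gave 0, 0, 0 and 1. Exons and introns alone gave 0 for siDNMT1 after induction and 1 for OB under NC, and stayed within 1.5 times for the other 2 comparisons. These changes follow from fewer entries or another threshold. Entries listed in the 2 libraries compared, centring and a mean level of 0.1 to 0.9 kept every count within 1.5 times. Centring kept the count of 1 for siDNMT1 after induction but with another entry, the Foxn2 exon (0.106, higher) in place of the Foxf1 3′ UTR (-0.0788), and left 2 for OB under siDNMT1, without the Foxn2 intron (-0.0873). Centring reversed the sign of the median difference with siDNMT1, to 0.00131 before and 0.00306 after induction. The correlation of CpG density with promoter level was -0.373 in the shorter window around the RefSeq start, over 18 genes, and the cause was not tested. In some of these genes that start lies far from the GENCODE start, so window and promoter entry need not cover the same sequence. In place of the median promoter level in NC uninduced, the mean was 0.237, the median over 5′ UTRs 0.0588 and the median without Foxm1 0.164, all inside the 95% order-statistic interval of that median, 0.0493 to 0.399, which treats genes as independent. Leaving out Foxm1, the start-island distance and centring of medians were added after seeing the data. Within 1 kb in place of 2.5 kb, 17 start islands in place of 18 had a level of at least 0.1. Without read counts no single level has an interval, and with no replicates no difference has an error.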
